A study of Homo sapiens with 6 samples.

Results

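Eph receptors and their ephrin ligands are the subject here, in MOC2 cells with and without targeting of the gene for HuR. The mouse family list used has 14 receptor genes and 8 ligand genes. Of these 22, the 10 described in depth are the receptors Epha1, Epha2, Epha4, Ephb2, Ephb3 and Ephb4 and the ligands Efna1, Efna5, Efnb1 and Efnb2, out of 21872 rows in the table. They were found by symbol, and they had been chosen by their counts in the knockout and control libraries, which were known when the list was made, with no stated threshold. Their differences between the groups are therefore given as a description, without p-values.

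MOC2 is a mouse oral squamous cell carcinoma line. HuR, encoded by Elavl1, is an RNA-binding protein that protects many mRNAs with AU-rich elements from decay. Bulk RNA-seq counts were available for 3 control and 3 knockout libraries. All cells had been exposed to lentiviral particles with CRISPR/Cas9 at 25 MOI for 18 h, carrying a control construct or one against HuR, and were cultured for another 72 h after washing. Loss of HuR was obtained in 1 isolated clone, per the protocols in the labels; the titles call these libraries knockdown and the genotype label calls them knockout, the word used here. Nothing says that the libraries of a group came from separate clones, so that p-values reflect library-to-library spread only, which may be technical. With 1 clone, loss of HuR and other traits of that clone cannot be told apart in any difference given below. The labels name human as the species, while the row names are mouse symbols and the series title names mouse cells.

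Eph receptors are receptor tyrosine kinases whose ligands, the ephrins, are themselves held in the membrane of a neighbouring cell. A-type ephrins are anchored by a glycolipid and B-type ephrins span the membrane and have a cytoplasmic tail, so that contact can signal into the receptor cell (forward) and into the ligand cell (reverse). A-type receptors mostly bind A-type ephrins and B-type receptors mostly B-type ephrins, with EphA4 and EphB2 among the receptors that also bind across the classes. The system is best known for repulsion, cell sorting and tissue boundaries, and EphA2 for its presence in epithelia and carcinomas.

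Each library held 16164136 to 21294330 counts as deposited. CPM are the usual depth-scaled counts, here relative to the TMM-scaled library total. Knockout library 3 stood apart: its log2 CPM correlated with knockout libraries 1 and 2 at 0.924 and 0.931, against 0.978 between those 2 and 0.987 to 0.992 between controls (Pearson's r over genes; genes are no independent replicates). The 3 control libraries had 107, 120 and 117 CPM of Elavl1 mRNA and the 3 knockout libraries 116, 114 and 105 CPM (log2 fold change -0.04, SE 0.111), so its level neither checks nor contradicts the labels. The 10 epithelial markers examined summed to 11584 to 14206 CPM in control and 5816 to 8556 CPM in knockout. Of the 9 tested, 7 were lower at an adjusted p under 0.05 in edgeR's quasi-likelihood test, beside 15.4% of all genes tested. Keratins carried most of that sum. Epcam, Cdh1, Cldn4 and Cldn7 were 14.7-fold, 13.4-fold, 22.4-fold and 15.6-fold lower. Krt18, Krt7 and Krt8 were 3.82-fold, 2.23-fold and 2.06-fold lower. Krt14 did not pass the threshold, and Krt19 was at 119% of its control mean. Krt5, too low for the test, went the other way, from at most 0.0491 CPM in control to 2.29, 0.49 and 0.184 CPM in knockout. Single marker genes are named here after their values were seen. The 10 fibroblast markers summed to 3.73 to 8.47 CPM in control and 409 to 430 CPM in knockout, mostly from Col1a1, Col3a1 and Pdgfrb, while Lum was at 0 in every library and Dcn and Col1a2 stayed under 1 CPM. The 8 endothelial markers summed to at most 2.14 CPM in any library. The 8 leukocyte markers summed to 1.81 to 6.51 CPM in 5 libraries and 37.1 CPM in knockout library 3. Cd68 made up 36.9 CPM of the latter, with Ptprc at 0 there. Among all these markers, the rows of Col1a2, Thy1, Postn, Vwf, Tek and Lyz2 had been divided by 11, as described under processing, and the sums use the divided values. The part of these markers in the results that follow was not tested, and in bulk RNA fewer cells of a type and less RNA per cell cannot be told apart.

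Among the 10 chosen genes, the receptor mRNAs were set apart between the groups, while most of the ligand mRNAs overlapped. Of the 6 receptors, 5 were lower and 1, Ephb2, was higher in knockout, each with groups that did not overlap. Of the 4 ligands, Efnb2 was lower and the other 3 had overlapping groups. In the edgeR quasi-likelihood fit across 12293 genes, these 7 genes were past an adjusted p of 0.05 and 3 ligands were not. Epha1 is among the 7, although only its control group passed the filter on low counts in every library. Its place there is a description and not a call to rely on. In the same fit 35.7% of all genes tested were past it (20.3% higher, 15.4% lower), and the groups did not overlap for 57.6% of them (29.7% with knockout higher, 27.9% with knockout lower). Since the choice of the 10 used this contrast, nothing is read from their share. The median log2 fold change was -1.77 over the 6 receptors and -0.08 over the 4 ligands, beside 0.03 over all genes tested. It was 1.22 over the 5 other family genes that passed the filter on low counts in every library. The medians of the 10 come from the values that chose them, so no contrast of receptors with ligands is read from them. The calls of Ephb3 and Ephb4 were lost without control library 1 (log2 fold changes -1.71 and -0.57).

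Among the A-type receptors, Epha4, the receptor that binds ephrins of both classes, had the largest fold difference of the 10. It was at 70.7, 72.9 and 76.9 CPM in the control libraries and at 3.11, 2.11 and 1.84 CPM in the knockout libraries. Every knockout library held less than 5% of the control mean. This is a 31.1-fold lower level (log2 fold change -4.96, SE 0.231, 95% interval -5.51 to -4.41, n = 3 per group).

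Epha1, an epithelial receptor, was at 24.3, 18.4 and 19 CPM in control, against 2.02, 1.37 and 0.184 CPM in knockout. Knockout library 3 held only 3 counts of Epha1, against 37 and 28 in knockout libraries 1 and 2, and was the lowest by a wide margin. The fitted difference was 17-fold (log2 fold change -4.08, SE 0.657). It was -3.60 on the log2 scale without knockout library 3. Because of knockout library 3, only the control group of Epha1 passed the filter on low counts in every library.

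Epha2, the carcinoma-associated receptor, had 860, 758 and 785 CPM in control, and 340, 167 and 228 CPM in knockout. The means were 801 ± 52.9 and 245 ± 87.9 CPM (SD, n = 3 each), with the highest knockout library well below the lowest control. Its log2 fold change was -1.71 (SE 0.265, 95% interval -2.34 to -1.07), a level 3.27-fold lower. The knockout libraries differed more among themselves than the controls did, with knockout library 1 at 42.5% of the control mean and knockout library 2 at 20.9%.

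The 3 B-type receptors went in different directions. Ephb2, known from boundary formation in epithelia and from axon guidance, was at 2.2, 0.835 and 1.09 CPM in control and 9.92, 9.02 and 5.51 CPM in knockout. All 3 knockout libraries exceeded the highest control, which itself stood apart from the other 2 controls. Its level was 5.87-fold higher in knockout (log2 fold change 2.55, SE 0.452), and 3.07 on the log2 scale without control library 1.

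Ephb3, a close relative of Ephb2 that shares ligands with it, was lower instead. It was at 15.3, 11.1 and 12.9 CPM in control and 5.78, 2.21 and 3.06 CPM in knockout, with no overlap. The difference was 3.55-fold (log2 fold change -1.83, SE 0.385). Ephb4, the receptor that pairs chiefly with ephrin-B2, showed the smallest difference among the 6 receptors. It was at 199, 183 and 184 CPM in control and 114, 139 and 117 CPM in knockout, 1.53-fold lower (log2 fold change -0.61, SE 0.128). Its spread was small in both groups, with SDs of 9.24 and 13.8 CPM.

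**Figure D1:**
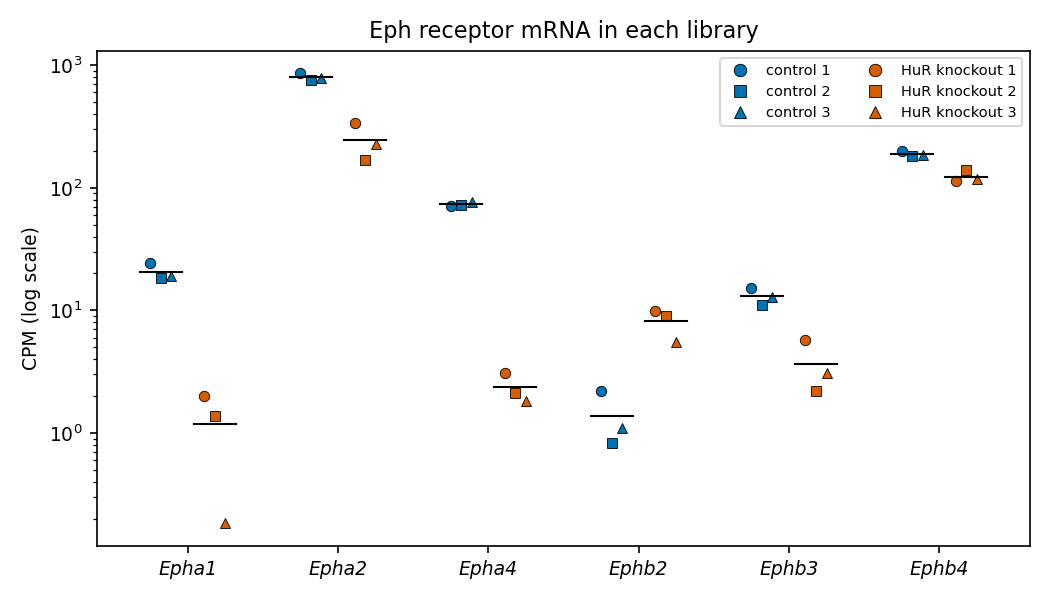
CPM on a log axis for the 6 Eph receptors in each of the 3 control (blue) and 3 HuR knockout (orange) libraries; black lines are group means and marker shapes are library numbers. Ephb2 alone lies higher in knockout, and the knockout points of Epha4 (1.84 to 3.11 CPM) lie furthest below their controls (70.7 to 76.9 CPM) apart from Epha1 in knockout library 3 (0.184 CPM).

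Of the ligands, Efnb2 was the one with separated groups. Efnb2 encodes ephrin-B2, a transmembrane ligand of EphB4 and EphA4. It was at 129, 125 and 128 CPM in control, a range narrower than that of any other member relative to its mean (CV 1.39%). In knockout it was at 52.8, 33.8 and 14.9 CPM, with knockout library 3 lowest. The difference was 3.76-fold (log2 fold change -1.91, SE 0.417), and -1.55 on the log2 scale without knockout library 3.

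For the other ligands the groups overlapped. Efna1, the best known ligand of EphA2, was at 33.8, 24.9 and 24.9 CPM in control and 24.7, 17 and 34.4 CPM in knockout. Its knockout libraries spanned the whole control range, and its log2 fold change was -0.14 with a 95% interval of -0.81 to 0.53. Efna5, a glycolipid-anchored ligand of several A-type receptors and of EphB2, was at 23.6, 24.9 and 26.1 CPM in control and 22.9, 23.3 and 27.4 CPM in knockout. Its interval was the narrowest of the 3, with a log2 fold change of -0.02 (-0.35 to 0.31). Efnb1, a transmembrane ligand of B-type receptors, was at 11.1, 9.38 and 11.2 CPM in control and 8.61, 9.16 and 15 CPM in knockout (log2 fold change 0.05, -0.58 to 0.68). For Efna1, Efna5 and Efnb1 alike, knockout library 3 had the highest knockout level. These intervals do not show that the ligands were equal between the groups: for Efna1 and Efnb1 they include differences of 1.44-fold in either direction.

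**Figure D2:**
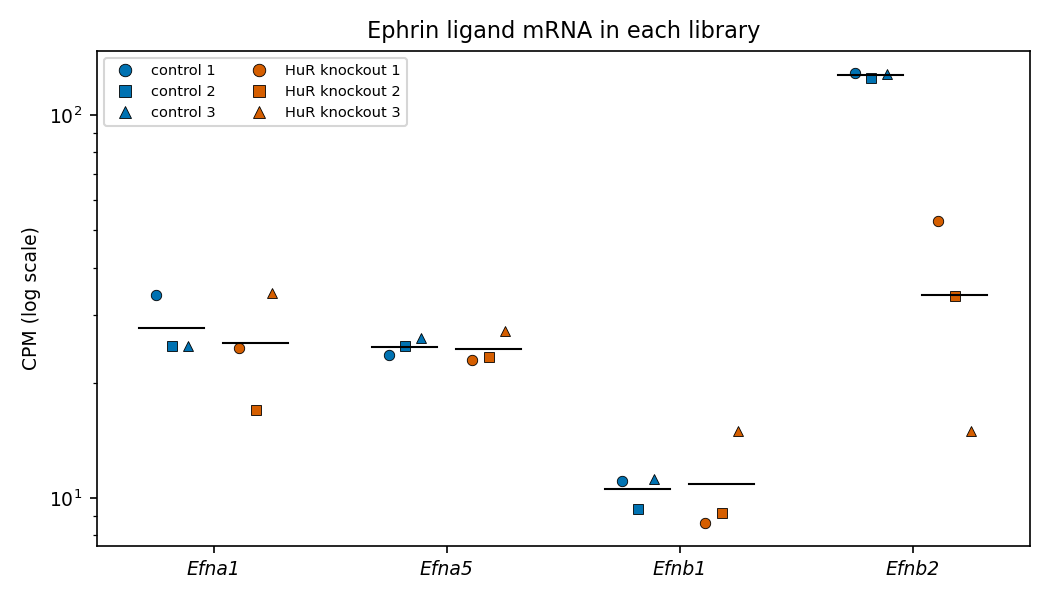
CPM on a log axis for the 4 ephrins in each control (blue) and HuR knockout (orange) library, with group means as black lines and library numbers as marker shapes. The groups overlap for Efna1, Efna5 and Efnb1 and are apart for Efnb2, whose knockout libraries lie between 14.9 and 52.8 CPM.

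Knockout libraries varied more among themselves than control libraries for 9 of the 10 genes, Ephb2 being the exception. The median coefficient of variation over the 10 was 8.19% in control and 33.4% in knockout. Over the genes tested that had a count in both groups the medians were 9% and 22.7%, and 81% of those genes varied more in knockout. Knockout library 3 was the lowest of the knockout libraries for Epha1, Epha4, Ephb2 and Efnb2 and the highest for 3 ligands. Over the 12293 genes tested it was the lowest for 5118 and the highest for 5314, so this is no trait of the family.

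The count ratio of each receptor to a known ligand was followed across libraries, relative to the control mean on the log2 scale. The size of a ratio depends on transcript lengths, which were not used here. Its change does not, provided that both groups used transcripts of the same lengths, which was not examined. The ratio of Epha2 to Efna1 was -1.07, -1.56 and -2.13 in knockout libraries 1, 2 and 3, with a control SD of 0.17. That of Epha4 to Efna5 was -4.44, -5.02 and -5.44 (control SD 0.016). In both pairs every knockout library lay below every control library.

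The ephrin-B2 pairs diverged. Ephb4 was lower in knockout, but Efnb2 was lower by more, so that the ratio of Ephb4 to Efnb2 was higher, at 0.55, 1.48 and 2.40 in the knockout libraries (control SD 0.057). The ratio of Epha4 to Efnb2 was lower, at -3.28, -3.20 and -2.21. For the partners of ephrin-B1, Ephb2 to Efnb1 stood at 3.24, 3.01 and 1.59, while Ephb3 to Efnb1 stood at -0.87, -2.34 and -2.58. The 2 related B-type receptors thus differed in direction relative to the same ligand in all 3 knockout libraries. These ratios are built from the values that chose the genes and carry no test.

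**Figure D3:**
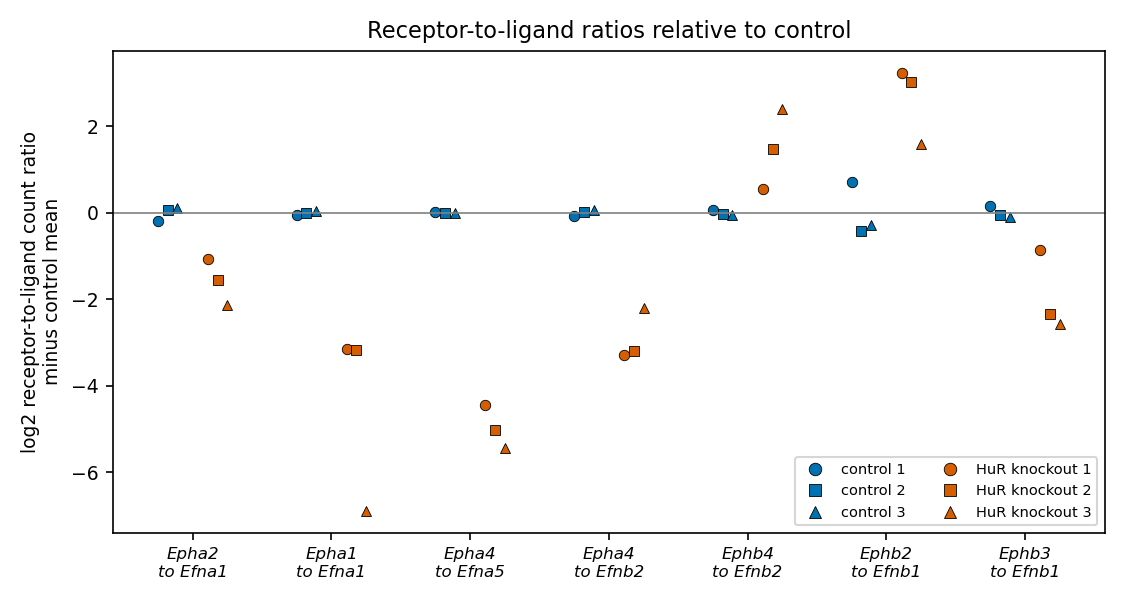
Log2 ratio of receptor to ligand counts (0.5 added to each) minus its control mean, for 7 receptor-ligand pairs, with one point per library (control blue, HuR knockout orange, shapes for library numbers). Knockout points lie below the controls in 5 pairs and above them for Ephb4 to Efnb2 and Ephb2 to Efnb1; Epha1 to Efna1 in knockout library 3, the lowest point, rests on 3 Epha1 counts.

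The rest of the family completes the picture. Of the other 12 genes, 7 passed the filter on low counts, 5 of them with enough counts in every library. Of these 5, Ephb6 and Efna2 were higher by edgeR's quasi-likelihood test and 3 did not pass. In that test 35.7% of all genes were past the threshold, 20.3% of them higher and 15.4% lower as shares of all genes. Nothing is read from the count among these 5. Ephb6, a receptor without kinase activity, was higher, at 3.37, 2.11 and 3.22 CPM in control and 8.55, 12.9 and 7.78 CPM in knockout (3.36-fold, adjusted p = 0.0071). Epha7 was at 1.82, 1.82 and 2.80 CPM in control, against 0.218, 0.245 and 0.0612 CPM in knockout, from 122 control counts and 10 knockout counts. Epha8 had 2 counts in all control libraries together and 104 in knockout, at 2.72, 2.01 and 0.796 CPM. That is a ratio of 54.9 with a 95% counting interval of 14.8 to 460. Epha7 entered the test through its control libraries alone and Epha8 through its knockout libraries alone, so each had to differ to some degree and neither is counted as a call here.

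Among the remaining ephrins, Efna2 was at 2.01, 1.38 and 2.67 CPM in control and 4.58, 5.15 and 4.35 CPM in knockout (2.33-fold higher, adjusted p = 0.027 by edgeR). This call was lost without control library 1, 2 or 3 and without knockout library 2 (log2 fold changes 1.21, 0.97, 1.44 and 1.15). Efna3 was at 5.94, 2.21 and 3.58 CPM in control and 6.43, 5.68 and 20.5 CPM in knockout, and did not pass (adjusted p = 0.108 by edgeR). Its value in knockout library 3 stood far above the other libraries, and its log2 fold change went from 1.47 to 0.63 without that library. DESeq2 did call Efna3 higher (log2 fold change 1.45). Efna4 (log2 fold change -0.07) and Efnb3 (-0.07) did not pass either, with 95% intervals of -0.50 to 0.35 and -0.80 to 0.66. Epha3, Epha5, Epha10 and Ephb1 were too low for the test, none reaching more than 0.441 CPM, and Epha6 had no count in any. The row of Epha10 had been divided by 11.

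**Figure D4:**
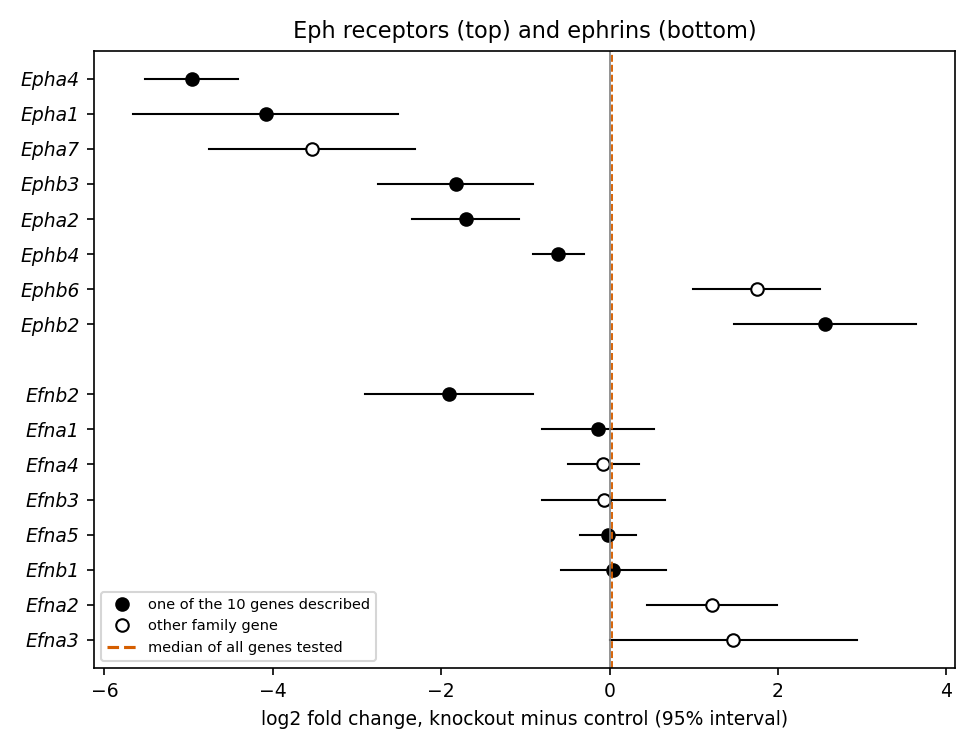
Log2 fold change of knockout minus control with its 95% interval for 16 of the 17 tested family genes, receptors above and ephrins below; filled circles are the 10 genes described and the dashed line is the median of all genes tested (0.03). Epha8 is left out because with 2 control counts its fitted value depends on the prior count. For Epha7 and Epha1 only the control group passed the filter on low counts in every library. The intervals of 5 ephrins cross 0, while those of Efnb2, Efna2 and the receptors shown do not and that of Efna3 begins at 0.00.

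To see whether genes that act with Eph receptors and ephrins differed as well, 3 lists of pathway genes were examined. Together they hold 56 genes, of which 53 were tested. Of these, 14 rose, 11 fell and 28 did not pass, or 25 past the threshold in all. The 25 include Rgs3 and Grb10, which had few counts in 1 group and whose values are a description. The median log2 fold change of the 53 was -0.004, beside 0.03 for all genes tested, of which 35.7% were past the threshold. Leaving out control library 1, 2 or 3 left 8, 7 and 8 higher; 9, 7 and 8 were then lower. Without knockout library 2, 9 were higher and 9 lower. Adjusted p-values in the next paragraphs are from edgeR's quasi-likelihood test over all genes, with n = 3 libraries per group.

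Of 28 adaptors and kinases that act at the receptor, 6 rose, 5 fell and 17 did not pass (median log2 fold change -0.08). Grb10 is counted among the 5 that fell, but its knockout libraries held only 36, 8 and 12 counts. Knockout library 2 fell short of the filter on low counts, so the value of Grb10 is a description. Shc1, an adaptor linking receptor kinases to Ras, rose from 104 ± 2.89 to 265 ± 40.9 CPM (2.55-fold, adjusted p = 0.00119). Src, the kinase, fell from 175 ± 19.5 to 82 ± 2.56 CPM (2.13-fold, adjusted p = 0.00154). Grb7, an SH2 adaptor, fell from 69.8 ± 8.3 to 5.83 ± 3.53 CPM (log2 fold change -3.58, adjusted p = 0.00173; -4.20 without knockout library 1). The adaptors Nck1, Nck2, Crk and Crkl, named as examples after their values were seen, had log2 fold changes of 0.24, -0.12, -0.04 and 0.06 and did not pass.

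Of 14 partners of the ephrin side, 13 were tested; 4 rose, 5 fell and 4 did not pass (median -0.12). Pard6b, a polarity protein of the family that binds ephrin-B1, fell from 120 ± 5.84 to 7.2 ± 1.5 CPM (16.6-fold, adjusted p = 0.000205). Grip1, a PDZ scaffold that binds ephrin-B tails, fell from 13.3 ± 2.29 to 2.42 ± 0.676 CPM (5.49-fold, adjusted p = 0.00153). Src, given above, also belongs to this list. Rgs3, a regulator of G-protein signalling that binds ephrin-B, was named after its values were seen. It was at 0.421, 0.196 and 0.547 CPM in control and 4.09, 3.77 and 10.7 CPM in knockout (log2 fold change 3.98, and 3.34 without knockout library 3). The control libraries held only 9, 4 and 9 counts of Rgs3, so it entered the test mainly through its knockout libraries. It is counted among the 4 that rose, but its value is a description. Without control library 1, 2 or 3 only 1 gene of this list was higher, and without knockout library 2 there were 2.

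Of 17 proteases and phosphatases that cut or dephosphorylate Eph receptors and ephrins, 15 were tested; 4 rose, 2 fell and 9 did not pass (median -0.004). Adam10, the membrane protease that sheds ephrins after contact, rose from 83.1 ± 1.87 to 211 ± 30.5 CPM (2.54-fold, adjusted p = 0.00111). Ptprj, a receptor phosphatase, rose 2.07-fold (adjusted p = 0.0102), and the protease gene Bace1 fell 1.49-fold (adjusted p = 0.0106). Both of these calls were lost without control library 2 (log2 fold changes 0.96 and -0.58). Without control library 1, 2 or 3, 2, 1 and 2 genes of this list were higher and 1, 0 and 1 lower. Without knockout library 2 these numbers were 2 and 1, and 4 were lower without knockout library 3.

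**Figure D5:**
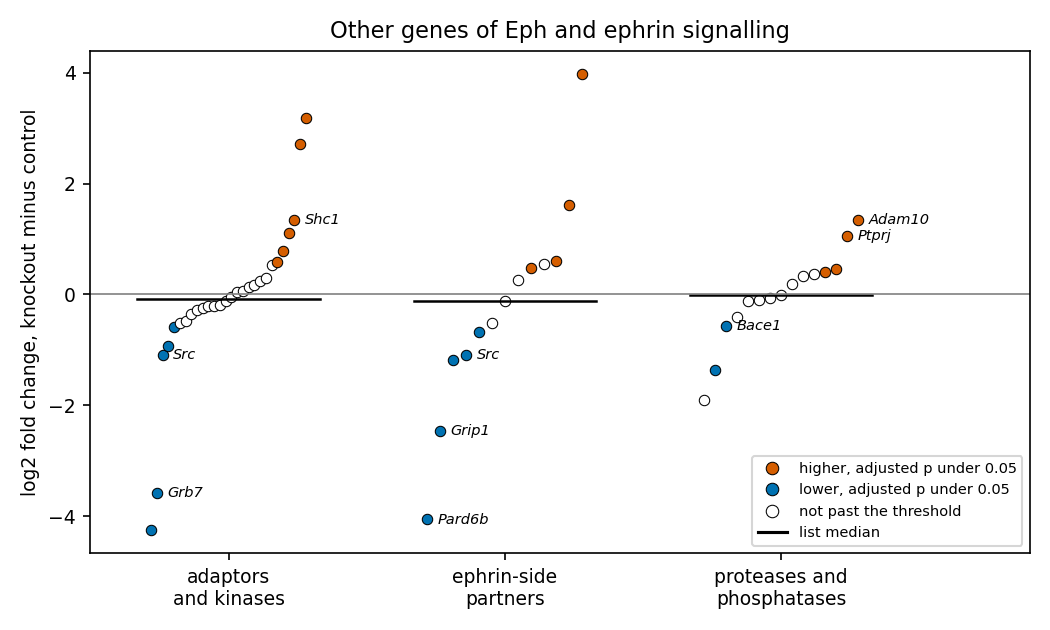
Log2 fold change of knockout minus control for the tested genes of the 3 pathway lists, ordered within each list; orange points are higher and blue points lower at an adjusted p under 0.05, white points did not pass, and black bars are list medians. The medians lie between -0.12 and -0.004, with Grb7 and Pard6b among the lowest points; the 3 genes with the smallest p in each list are labelled.

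The genes whose profiles over the 6 libraries lay closest to that of Epha4 were Slc4a11, Slc25a13 and Ccn2, with Euclidean distances of 0.266, 0.444 and 0.584 in centred log2 CPM, among 10295 genes whose mean reached 5 CPM. Slc4a11, a membrane transporter, was at 149, 177 and 171 CPM in control and 6.27, 4.17 and 4.16 CPM in knockout. Ccn2, a secreted matricellular factor, went from 458 to 12.4 CPM on average, and Slc25a13, a mitochondrial carrier, from 13.5 to 0.337 CPM. For the member with the highest log2 fold change at that mean, Efnb1, the closest were Kdm3b, Foxf2 and Tpmt (0.138, 0.138 and 0.151), genes that like Efnb1 were highest in knockout library 3. Ephb2 lay under the minimum mean. With 6 libraries in 2 groups, such likeness is a description and says nothing of shared control.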

How the data were processed

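The members and gene lists were chosen with earlier results of these data known. The authors deposited whole-number counts per gene symbol for 6 libraries; the submitters' processing notes name STAR 2.7.1a, featureCounts and hg38, with no role given for any of them. The gene annotation, strandedness and filtering were not given in the sources used here, so overlapping or antisense genes may share reads. Columns were tied to samples by the library names in the labels. Rows at 0 in control library 1 but not in every library (1704 of them) held only multiples of 11 and were divided by 11. None of the 10 genes stood in such a row.

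The fit used edgeR 4.0.16 (R 4.3.3), with filterByExpr (10 counts, scaled to library size, in at least 3 libraries), TMM scaling, robust dispersions and the quasi-likelihood test, with Benjamini-Hochberg adjustment over 12293 genes and a threshold of 0.05. The biological coefficient of variation was 28%. Standard errors are the log2 fold change divided by the square root of its F statistic; intervals are 95%. Totals after division were 16158516 to 21294330 counts. Same-group libraries differed by more than sampling noise in every pair. Genes named outside the 10 are, by rule, the tested family genes, the 3 with the smallest p in each pathway list and the 3 nearest profiles; all others, single marker genes included, were chosen after their values were seen. Alternatives were DESeq2 1.42.0, limma-voom (limma 3.58.1), other scaling, no filter, the values as deposited, a replicate block and leaving out each library. The planned look at promoter letters and protein sequences was not run, because the sequence tables at hand are human and the rows carry mouse symbols. A further list of pathway genes is not reported here.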

Additional observations from a re-analysis of the deposited data

How the results depend on the processing

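Of 130 log2 fold changes of the 10 genes over 13 alternatives, 128 kept their direction where called and their side of the threshold. The exceptions were Ephb3 and Ephb4 without control library 1. The 10 were chosen by these same counts, so this number describes the processing and is no support for their differences. With the values as deposited, without the divided rows, with DESeq2 size factors, DESeq2, limma-voom or no filter, 6 of the 10 were lower and 1 higher each time. Epha1, which did not pass the filter on low counts in every knockout library, is counted among the lower. Leaving out 1 library at a time gave 4 to 6 lower and 1 higher. Over all genes, leaving out 1 library gave 1166 to 3178 higher and 1130 to 2843 lower, against 2493 and 1899, with the lowest numbers without a control library. DESeq2 called 3002 higher and 2482 lower. Among the pathway genes, leaving out 1 library gave 7 to 17 higher and 7 to 14 lower, against 14 and 11. The cause of these moves was not tested, beyond that fewer libraries entered each fit. Of 793 values of other family and pathway genes and Elavl1, 726 kept their call, 52 lost it, 15 gained it and 0 reversed.

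Control and knockout libraries share replicate numbers in the labels, but deviations of same-numbered libraries correlated at -0.049, 0.256 and 0.022. The numbers were therefore not taken as pairs. For control library 1 the highest value was with knockout library 3 (0.192). The highest of any pair was that of control library 2 with knockout library 2 (0.256). With the replicate number as a block, 1976 genes were higher and 1615 lower, the 10 genes kept 1 higher and 6 lower, the pathway lists had 10 higher and 11 lower, and Efna2 lost its call (log2 fold change 1.25). Few counts in one group limit the precision for Epha1, Epha7, Epha8, Rgs3 and Grb10, among others.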

Other observations

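Outside the naming rule, and chosen after their values were seen, several signalling genes of the pathway lists differed by large amounts. Pik3r1, the regulatory subunit of PI3-kinase, was at 18.1, 19.1 and 22.1 CPM in control and 88.7, 175 and 274 CPM in knockout (log2 fold change 3.18, adjusted p = 0.00221 by edgeR). Cblb, a ubiquitin ligase that acts on activated receptor kinases, was at 17.4, 15.6 and 20 CPM in control and 80.8, 83.9 and 182 CPM in knockout (log2 fold change 2.71, adjusted p = 0.00236 by edgeR). Grb10, an SH2 adaptor related to Grb7, was at 20.5, 19.5 and 19.1 CPM in control and 1.96, 0.392 and 0.735 CPM in knockout (log2 fold change -4.25, and -5.14 without knockout library 1). The knockout libraries held only 36, 8 and 12 counts of Grb10, so its value is a description. Knockout library 3 was the highest for Pik3r1 and Cblb, and the groups did not overlap for any of these 3 genes.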
